A study of Saccharomyces cerevisiae with 31 samples.

Results

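The genes described here encode 10 enzymes and carriers of the glyoxylate cycle and of gluconeogenesis in the budding yeast Saccharomyces cerevisiae: ICL1, MLS1, CIT2, MDH2, MDH3, PCK1, FBP1, PYC1, IDP2 and SFC1. They were picked by symbol in the array annotation, where each had 1 probe set, and all 10 were above the intensity filter, among 5382 genes tested. The arrays form 1 time series of strain CEN.PK122 in aerobic continuous culture, which oscillates by itself between a respiratory and a reductive state with a nominal period of 2 h. Total RNA was taken every 4 min from 12.53 to 14.53 h, 1 Affymetrix Yeast 2.0 array per time, and each of the 31 arrays carries a phase angle from 5.93 to 362.01 degrees. No allele, agent or control group is labelled, nothing in the labels says which angles are respiratory, and no second culture was sampled, so p-values measure only the spread between arrays of 1 series.

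The glyoxylate cycle bypasses the steps of the tricarboxylic acid (TCA) cycle that release carbon dioxide, so that acetyl-CoA from ethanol or acetate can be built into malate and oxaloacetate. Gluconeogenesis then turns oxaloacetate into hexose phosphates through phosphoenolpyruvate. In yeast, both pathways are known for repression by glucose, activation through the Snf1 kinase and the factors Cat8, Sip4 and Adr1, and removal of several of the enzymes by the GID ubiquitin ligase when glucose returns.

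Array medians ran from 1056 to 2142, a 2.03-fold span, and were made equal by quantile normalization, so the values below are normalized probe set intensities on a linear scale. The number of arrays limits the precision, and the level of one probe set says nothing about that of another. By the ratio of poly-A to hybridization spikes the arrays fell into 2 sets of 16 and 15. These are called spike sets 1 and 2 here, since no label names a batch. Both sets occur in every window of 60 degrees, but in runs around the trough and the rise. The arrays from 17.80 to 41.54 degrees are of set 2, those from 53.41 to 89.01 degrees of set 1. Those from 100.88 to 148.35 degrees are of set 2 again. At 0 to 60 degrees set 1 has only 2 arrays, at 5.93 and 53.41 degrees. Rises within set 1 therefore leave out the arrays from 17.80 to 41.54 degrees. The dimmest array before normalization, at 41.54 degrees, is also the array with the lowest normalized value of 6 of the 10 genes; the part of its low signal in those values was not tested, and the rises of the genes without it are given below. Residuals of neighbouring arrays were correlated (lag-1 correlation 0.645), and fits that allow for this are given too.

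Of the 10 genes, 8 had their lowest array between 29.67 and 53.41 degrees; for PCK1 it lay at 326.37 degrees and for PYC1 at 172.09 degrees. All 10 were higher at 60 to 120 degrees than at 0 to 60 degrees in limma's test, with p-values adjusted by Benjamini-Hochberg over the whole array (42.1% of all probe sets tested were higher and 34% lower in this step). The median change of the 10 genes was 1.51 on the log2 scale, against 0.06 over all probe sets. After the rise, ICL1, MLS1, CIT2, PCK1 and PYC1 fell again at 120 to 180 degrees, and MDH3 rose further. MDH2, IDP2, FBP1 and SFC1 showed no change that passed the test in that step. Their differences were 0.08, -0.21, -0.50 and -0.63 on the log2 scale, so the threshold groups them rather than a shared course. The 6 calls of this step were lost with serially correlated arrays and within spike set 2, where 0.35% and 0.129% of all probe sets passed. On the deposited scale 7 of the 10 fell and 1 rose (54.7% of all probe sets passed, against 40.0% after quantile normalization). At 120 to 180 degrees all arrays but that at 160.22 degrees are among the 5 dimmest before normalization. The step could not be fitted without them, and the part of their low signal in it was not tested. The array at 89.01 degrees held 1.43-fold (PYC1) to 9.60-fold (SFC1) the intensity of the array at 41.54 degrees. The former is of spike set 1 and the latter of spike set 2.

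**Figure D1:**
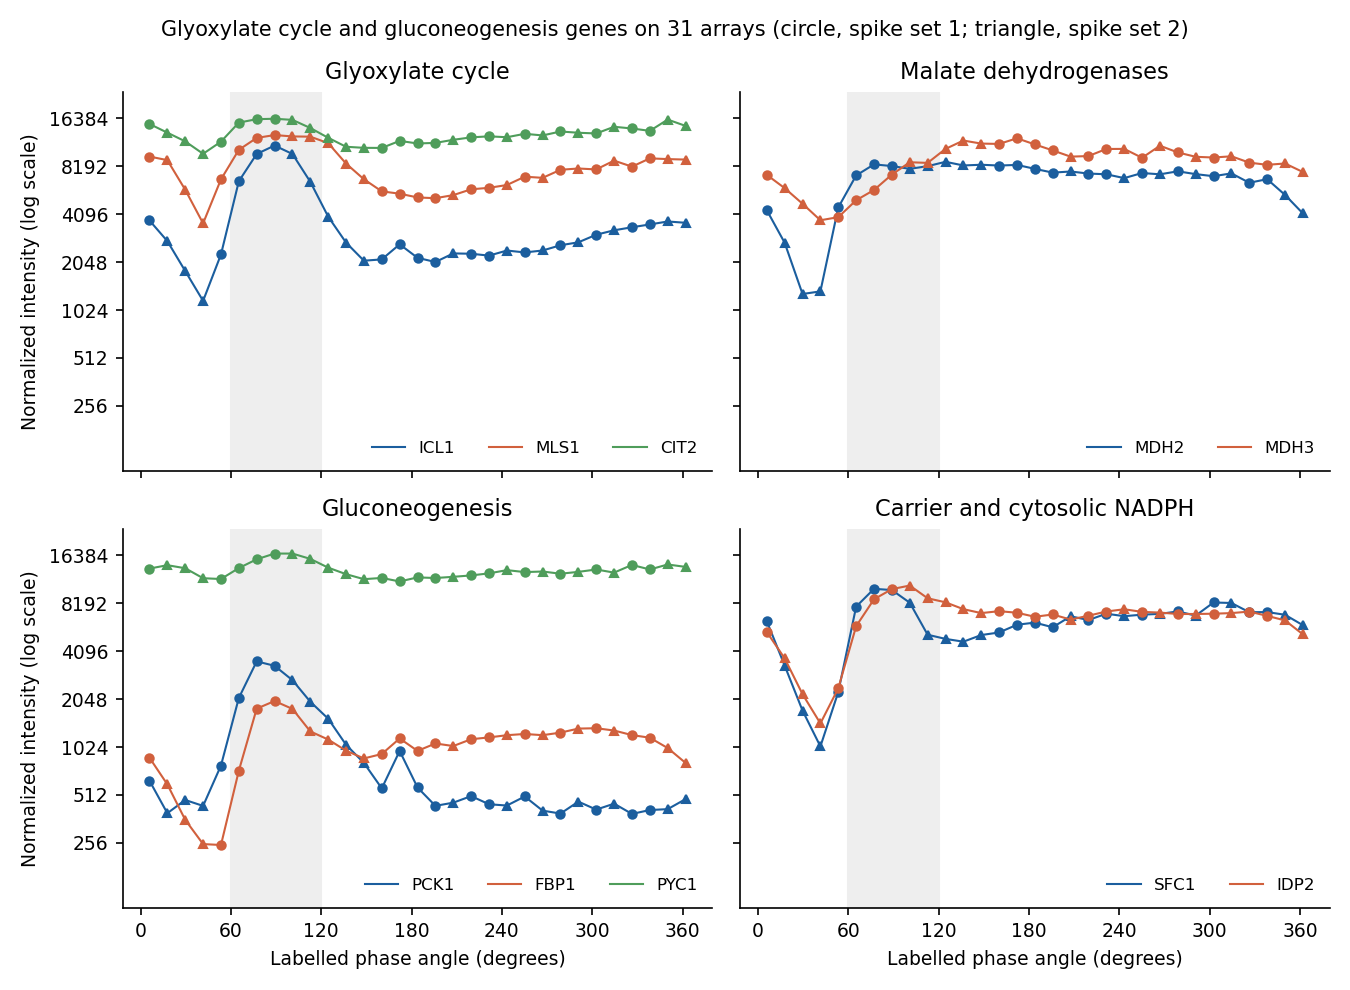
Normalized intensity (log axis) of the 10 genes on each of the 31 arrays against the labelled phase angle in degrees, in 4 panels by role; circles are arrays of spike set 1, triangles of spike set 2, and the grey band marks 60 to 120 degrees. ICL1 and PCK1 stand out as a narrow peak, whereas MDH2, IDP2, FBP1 and SFC1 stay above their trough values after the rise, FBP1 and SFC1 after a drop, and MDH3 is highest at 172.09 degrees.

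The enzymes that define the glyoxylate cycle are isocitrate lyase, encoded by ICL1, which splits isocitrate into succinate and glyoxylate, and malate synthase, encoded by MLS1, which joins glyoxylate and acetyl-CoA into malate. ICL1 had an intensity of 1170 at 41.54 degrees, 2288 at 53.41 degrees, 6603 at 65.28 degrees, 9792 at 77.14 degrees and 11062 at 89.01 degrees, and was back at 2091 at 148.35 degrees. Every array from 60 to 120 degrees exceeded every other array for ICL1, and the arrays at 53.41, 65.28, 77.14 and 89.01 degrees all belong to spike set 1. At 60 to 120 degrees ICL1 ranged from 6545 to 11062 with a median of 9792 (n = 5), against 1170 to 3743 with a median of 2533 at 0 to 60 degrees (n = 6). The windows did not overlap, and ICL1 rose by 1.85 ± 0.21 on the log2 scale (SE; limma adjusted p = 1.05e-08), by 1.61 within spike set 1 and by 1.90 within spike set 2.

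ICL1 then fell by 1.70 ± 0.22 on the log2 scale at 120 to 180 degrees (limma adjusted p = 2.02e-06), with 2091 to 3955 there against 6545 to 11062 at 60 to 120 degrees, again without overlap. From 180 to 360 degrees it crept upward, with window medians of 2250, 2424 and 3393, but neither of these steps passed the test (adjusted p = 0.744 and 0.224). At 0 to 60 degrees it was lower by 0.50 ± 0.21 than at 300 to 360 degrees (adjusted p = 0.0341), a call that was lost without any 1 of the arrays at 29.67, 41.54, 53.41, 326.37, 338.24 and 350.11 degrees (adjusted p of 0.0506 to 0.131). The call was also lost with median centring (limma adjusted p = 0.0803), with serially correlated arrays (0.778) and without the 5 dimmest arrays (0.107). Of those 5 only the array at 41.54 degrees lies in these windows. Within spike sets 1 and 2 it was lost too (0.519 and 0.139).

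MLS1 followed the same course with a smaller swing. It had 3589 at 41.54 degrees, its lowest value, and 12874 at 89.01 degrees, its highest, with 5166 at 195.82 degrees between the peak and the slow climb of the rest of the cycle. MLS1 ranged from 10400 to 12874 at 60 to 120 degrees, against 3589 to 9435 at 0 to 60 degrees, without overlap, and rose by 0.81 ± 0.18 (limma adjusted p = 0.000244). With serially correlated arrays the rise was 0.51 and did not pass (adjusted p = 0.0891). It fell by 0.73 ± 0.19 at 120 to 180 degrees (limma adjusted p = 0.00374), where the windows overlapped.

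CIT2 encodes the peroxisomal citrate synthase, which feeds the cycle with citrate and is the best known target of the Rtg factors of mitochondrial retrograde signalling. Its intensity was the highest of its course at 89.01 degrees, 16299, and the lowest at 41.54 degrees, 9817. CIT2 ranged from 14259 to 16299 at 60 to 120 degrees, against 9817 to 15112 at 0 to 60 degrees, and these windows overlapped. It rose by 0.31 ± 0.08 (limma adjusted p = 0.000769) and fell by 0.47 ± 0.08 at 120 to 180 degrees, where its window of 10687 to 12376 lay wholly under the preceding one (adjusted p = 8.06e-05). The first of these changes was 0.27 on the deposited scale (adjusted p = 0.0536) and 0.13 with median centring (adjusted p = 0.0754). The small changes of CIT2 and PYC1 were measured near the top of the scale, whose highest deposited value is 24502, and compression there was not tested.

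Malate dehydrogenase interconverts malate and oxaloacetate; MDH2 encodes the cytosolic enzyme that serves gluconeogenesis and the glyoxylate cycle, and MDH3 the peroxisomal one. MDH2 had 1292 at 29.67 degrees, 1342 at 41.54 degrees, 4518 at 53.41 degrees, 7178 at 65.28 degrees and 8423 at 77.14 degrees. It then stayed between 6906 and 8744 on every array from 77.14 to 314.51 degrees. MDH2 at 60 to 120 degrees ranged from 7178 to 8423, against 1292 to 4518 at 0 to 60 degrees, without overlap, and rose by 1.57 ± 0.22 (limma adjusted p = 5.55e-07). The rise was 0.84 within spike set 1 and 1.94 within spike set 2. At 0 to 60 degrees set 1 has 2 arrays, at 5.93 and 53.41 degrees, with 4342 and 4518. Set 2 has 4 there, among them those at 29.67 and 41.54 degrees, so the values do not measure the same rise.

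At 0 to 60 degrees MDH2 was lower than at 300 to 360 degrees, where it ranged from 5416 to 7397, by 1.29 ± 0.22 on the log2 scale and without overlap (limma adjusted p = 2.22e-05).

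MDH3 climbed over more arrays than MDH2. It had 3754 at 41.54 degrees, 3926 at 53.41 degrees, 5817 at 77.14 degrees, 8688 at 100.88 degrees and 12287 at 172.09 degrees, its highest value. Its rise at 60 to 120 degrees was 0.38 ± 0.15 with overlapping windows (limma adjusted p = 0.0231), and this call was lost without the array at 41.54, 53.41, 100.88 or 112.75 degrees (adjusted p of 0.0737 to 0.0862), with median centring (0.0663) and within spike set 1 (0.546). The further rise at 120 to 180 degrees was larger, 0.73 ± 0.15, and here the windows did not overlap, with 10538 to 12287 at 120 to 180 degrees against 5013 to 8688 at 60 to 120 degrees (adjusted p = 0.00065). Among the 10 genes MDH3 was the one that rose in this step, in which 19.6% of all probe sets tested were higher and 20.4% lower; the 5 that fell are named above.

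The committed step of gluconeogenesis is catalysed by phosphoenolpyruvate carboxykinase, encoded by PCK1. PCK1 had 437 at 41.54 degrees, 783 at 53.41 degrees, 2082 at 65.28 degrees and 3533 at 77.14 degrees, and then declined through 1971 at 112.75 degrees to 813 at 148.35 degrees. It stayed at 389 to 570 on all arrays from 183.96 to 350.11 degrees. The median of PCK1 over the 15 arrays from 148.35 to 314.51 degrees was 1.05-fold its value at 41.54 degrees, while the array at 89.01 degrees was 7.24-fold that median.

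PCK1 ranged from 1971 to 3533 at 60 to 120 degrees, against 393 to 783 at 0 to 60 degrees, without overlap. It rose by 2.35 ± 0.19 on the log2 scale (limma adjusted p = 6.5e-11), by 2.05 within spike set 1 and by 2.37 within spike set 2. It fell by 1.497 ± 0.196 at 120 to 180 degrees (adjusted p = 2.72e-06) and by 0.96 ± 0.20 at 180 to 240 degrees (adjusted p = 0.00437). In that last step PCK1 was the only one of the 10 to pass (3.97% of all probe sets tested were higher and 4.85% lower), and it did not pass on the deposited scale, with serially correlated arrays or within spike set 1.

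FBP1 encodes fructose bisphosphatase, the enzyme that opposes phosphofructokinase. FBP1 was still at its lowest at 53.41 degrees, with 252 at 41.54 degrees, 248 at 53.41 degrees, 727 at 65.28 degrees, 1783 at 77.14 degrees and 1992 at 89.01 degrees. Over the 15 arrays from 148.35 to 314.51 degrees it kept to 868 to 1343, a median 4.68-fold its value at 41.54 degrees. FBP1 rose by 1.63 ± 0.26 at 60 to 120 degrees (limma adjusted p = 3.07e-06), with 727 to 1992 there against 248 to 877 at 0 to 60 degrees, windows that overlapped because the array at 65.28 degrees lay below those at 5.93 and 362.01 degrees. At 0 to 60 degrees FBP1 was 1.39 ± 0.26 lower than at 300 to 360 degrees, without overlap (adjusted p = 5.72e-05).

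PYC1 encodes a pyruvate carboxylase, which makes oxaloacetate from pyruvate both for gluconeogenesis and to refill the TCA cycle. Its intensity moved little: it was lowest at 172.09 degrees, 11225, and highest at 89.01 degrees, 16809. PYC1 rose by 0.26 ± 0.06 at 60 to 120 degrees (limma adjusted p = 0.000288) and fell by 0.36 ± 0.06 at 120 to 180 degrees (adjusted p = 6.23e-05), with overlapping windows both times. The rise became 0.07 with median centring (adjusted p = 0.271) and 0.22 on the deposited scale (adjusted p = 0.0854).

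SFC1 encodes the mitochondrial carrier that exchanges succinate made by isocitrate lyase for fumarate, and IDP2 the cytosolic isocitrate dehydrogenase that makes NADPH from the substrate it shares with isocitrate lyase. SFC1 had 1033 at 41.54 degrees, 2269 at 53.41 degrees, 7800 at 65.28 degrees and 10093 at 77.14 degrees, a dip to 4698 at 136.48 degrees and a second, lower maximum of 8283 at 302.64 degrees. SFC1 rose by 1.51 ± 0.29 at 60 to 120 degrees (limma adjusted p = 3.2e-05), with 5196 to 10093 there against 1033 to 6324 at 0 to 60 degrees. The overlap comes from the arrays at 5.93 and 362.01 degrees, where SFC1 had not yet fallen.

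IDP2 climbed to 10581 at 100.88 degrees, with 1440 at 41.54 degrees and 5882 at 65.28 degrees on the way, and then settled at 6471 to 7510 over the 15 arrays from 148.35 to 314.51 degrees. IDP2 rose by 1.505 ± 0.215 at 60 to 120 degrees (limma adjusted p = 4.97e-07), with 5882 to 10581 there against 1440 to 5405 at 0 to 60 degrees and no overlap. At 0 to 60 degrees it was 1.19 ± 0.21 lower than at 300 to 360 degrees (adjusted p = 3.48e-05), again without overlap.

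**Figure D2:**
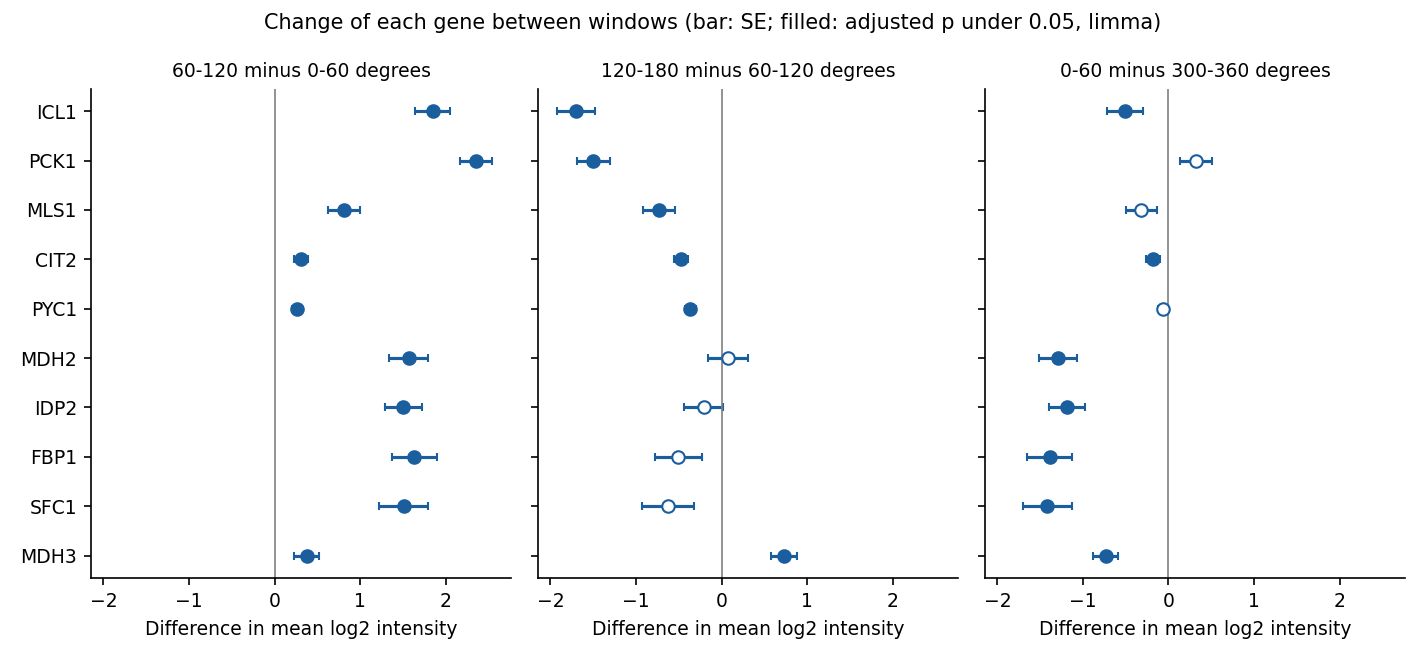
Later minus earlier mean log2 intensity for each of the 10 genes in 3 of the 6 steps between windows of 60 degrees (points, difference; bars, SE; filled points, adjusted p under 0.05 in limma's test). All 10 points lie to the right of 0 at 60 to 120 degrees, 5 filled points lie to the left and MDH3 to the right at 120 to 180 degrees, and 7 filled points lie to the left at 0 to 60 degrees against 300 to 360 degrees.

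None of the 10 genes passed the test at 240 to 300 degrees against 180 to 240 degrees (0.166% of all probe sets tested were higher and 0.129% lower) or at 300 to 360 degrees against 240 to 300 degrees (0% in each direction), and none had an unadjusted p under 0.05 in either step of limma's test (11.9% and 24.2% of all probe sets did). The descent into the trough, at 0 to 60 degrees against 300 to 360 degrees, was called for 7 of the 10, all lower: ICL1, MDH2, MDH3, CIT2, FBP1, IDP2 and SFC1 (34% of all probe sets tested were lower and 35.4% higher). The fall of CIT2, 0.18 ± 0.08, was lost without any 1 of 6 arrays (those at 29.67, 41.54, 53.41, 314.51, 326.37 and 350.11 degrees), and with median centring CIT2 was 0.08 higher instead (adjusted p = 0.292). MLS1, PYC1 and PCK1 did not pass; their differences were -0.32, -0.06 and 0.32 on the log2 scale. With serially correlated arrays none of the 10 passed in this step, where no probe set did (0%), and 8 passed at 60 to 120 degrees against 0 to 60 degrees (45.2% of all probe sets).

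The scale matters to the size of these steps: on the deposited scale the median of all probe sets was 0.15 higher on the log2 scale at 60 to 120 degrees than at 0 to 60 degrees. The rise of ICL1, MDH2, FBP1, PCK1, IDP2 and SFC1 was 1.48 to 2.61 under the deposited scale, median centring and scaling by the hybridization spikes, and MLS1 rose by 0.72 to 0.86. Without the 5 dimmest arrays 9 of the 10 passed in the rising step (72.8% of all probe sets), with MDH3 missing (0.28, adjusted p = 0.107). Of these arrays only that at 41.54 degrees lies in the windows of this step. The differences are therefore the same as without it alone, and this is no separate check. Without the array at 41.54 degrees alone, the rise was 1.64 for ICL1, 0.62 for MLS1, 0.24 for CIT2, 1.29 for IDP2 and 1.22 for SFC1, each past the threshold (adjusted p of 6.41e-09 to 0.00235).

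Each gene was also fitted with 1 cosine per cycle, whose range from trough to peak in log2 units summarizes slow variation, and with the terms at 2 and 3 times the angle, which catch faster variation. The single cosine passed the F-test of limma in 8 of the 10 genes (89.1% of all probe sets tested), and its range reached 2-fold in 4 of them, ICL1, MDH2, MDH3 and PCK1 (23.1% of all probe sets tested). The range was 1.01 ± 0.34 for ICL1 (limma adjusted p = 0.0225), 1.17 ± 0.28 for MDH2 (0.00137), 0.84 ± 0.28 for IDP2 (0.0198) and 0.60 ± 0.20 for MLS1 (0.0248). FBP1 with 0.83 ± 0.32 (adjusted p = 0.0578) and SFC1 with 0.75 ± 0.33 (0.104) did not pass.

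For PCK1, with a range of 2.21 ± 0.31, and MDH3, with 1.01 ± 0.14, the single cosine was larger than the faster terms (1.82 and 0.88). For the other 8 the faster terms were larger. The peak of the single cosine lay at 221 degrees for FBP1 and 239 degrees for SFC1, far from their brightest arrays at 89.01 and 77.14 degrees. The faster terms passed in all 10 genes (86.1% of all probe sets tested), with adjusted p from 9.55e-10 for MDH3 to 0.000387 for SFC1, and so did the 3 terms together (95.7%). The median range of the faster terms was 1.65 for the 10 genes, against 0.49 over all probe sets, and that of the whole curve was 2.08, against 0.81. The fitted curve was highest between 60 and 120 degrees in 8 of the 10 genes (24.4% of all probe sets tested); it was highest at 144 degrees for MDH3 and at 320 degrees for SFC1, although the brightest single array of SFC1 was the one at 77.14 degrees.

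Several calls of the single cosine depended on 1 array. ICL1 did not pass without the array at 77.14, 89.01 or 100.88 degrees (adjusted p of 0.0506 to 0.0613), and FBP1 passed without any 1 of them (0.0185 to 0.0297). SFC1 passed without the array at 77.14 or 89.01 degrees (0.0371 and 0.0424), and IDP2 did not pass without that at 29.67 degrees (0.0531). CIT2, with a range of 0.26 ± 0.09, did not pass without the array at 148.35, 160.22 or 350.11 degrees. With serially correlated arrays 2 of the 10 genes passed for the single cosine (60.3% of all probe sets) and 9 for the faster terms (48.0%).

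The first and last arrays, 2 h apart, sample nearly the same angle. On the last array the 10 genes were within 0.11 of the first on the log2 scale, except PCK1, which was 0.38 lower, with 482 on the last array against 629 on the first. Over all probe sets the median absolute difference between these arrays was 0.06, and that between neighbouring arrays 0.09.

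The pairwise Pearson correlations of the 10 genes over the 31 arrays, which share the arrays' processing and serial correlation, ran from -0.21 (MDH3 and PYC1) to 0.95 (FBP1 and IDP2), with a median of 0.55 over 45 pairs. ICL1, MLS1, CIT2 and PYC1 had correlations of 0.81 to 0.90 with each other, and MDH2, IDP2, FBP1 and SFC1 of 0.79 to 0.95. PCK1 had 0.81 with ICL1 and 0.23 with SFC1. Of the 5 negative correlations, all involved MDH3.

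Outside the 10, the probe set whose course was most like that of ICL1 over the 31 arrays was IDH1, a subunit of the mitochondrial isocitrate dehydrogenase (Pearson r = 0.93). For PCK1 these were AQY1, a water channel gene (0.92), and IDH2, the other subunit (0.92). MDH2 was closest to MPC3, a subunit gene of the mitochondrial pyruvate carrier (0.98), and CSR2 (0.98), MDH3 to ATG34 (0.98) and AIM41 (0.98), and IDP2 to ADR1, the gene of an activator of genes for the use of ethanol and fatty acids (0.98), and CIT1 (0.97). FBP1 was closest to ARO10 (0.95) and the carnitine acetyltransferase gene YAT2 (0.94), and SFC1 to the proline permease gene PUT4 (0.96) and RTS3 (0.93). MLS1 was closest to the mitochondrial alcohol dehydrogenase gene ADH3 (0.91) and SNZ3 (0.89). CIT2 was closest to the proline catabolic gene PUT2 (0.86) and to CRC1 (0.86), which encodes the mitochondrial carrier for acetylcarnitine and was also among the nearest to PYC1 (0.88, with MSH6 at 0.87) and ICL1 (0.89).

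Whether partner enzymes moved in step was asked of 14 pairs, by a two-sided permutation test over arrays of the log2 difference between their probe sets. All 14 differences varied with the angle after adjustment over the pairs, with adjusted p from 1.56e-05, the smallest that 100000 permutations allow here, to 0.00669 for PYC1 and PYC2. The permutations take arrays as exchangeable; with serially correlated arrays MDH2 and MDH3 (adjusted p = 0.0901), MDH2 and MDH1 (0.127) and PYC1 and PYC2 (0.415) did not pass, and PYC1 and PYC2 did not pass within spike set 2 (0.178).

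ICL1 and IDP2 compete for cytosolic isocitrate. Their difference was 1.16 above its own mean over the arrays at 77.14 degrees and 0.79 below it at 160.22 degrees (curve range 1.95, permutation adjusted p = 1.56e-05). By window, this difference was highest at 60 to 120 degrees, 0.97 above its mean. From 120 to 300 degrees its window means stayed 0.52 to 0.64 below it, with the lowest at 180 to 240 degrees. The difference of ICL1 and MLS1, successive steps of the cycle, was 0.79 ± 0.29 above its mean at 60 to 120 degrees (SD, n = 5) and within 0.25 of it in the 5 other windows. Relative to ICL1, the carrier gene SFC1 was lowest at 112.75 degrees, 1.20 below its mean, and highest at 231.43 degrees, 0.78 above.

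Isoenzymes differed as well. DAL7, the second malate synthase gene of yeast, which serves allantoin breakdown, moved against MLS1 around the trough: it ranged from 1191 to 5562 at 60 to 120 degrees, against 6341 to 9359 at 0 to 60 degrees, and fell by 1.53 ± 0.25 while MLS1 rose (limma adjusted p = 3.01e-06). At 120 to 180 degrees both fell, DAL7 by 1.82 (adjusted p = 7.26e-06), and over all 31 arrays their correlation was 0.18. The difference of MLS1 and DAL7 spanned -3.08 at 41.54 degrees to 1.92 at 124.62 degrees around its mean. The mitochondrial partners of MDH2 and CIT2 took part in the trough but not equally: MDH1 rose by 0.72 ± 0.08 and CIT1 by 0.35 ± 0.07 at 60 to 120 degrees, and CIT1 did not fall with CIT2 at 120 to 180 degrees (-0.04, adjusted p = 0.67). CIT1 and CIT2, and PYC1 and PYC2, are close copies whose probe sets could share signal, so these pairs are uncertain. ICL2, an isocitrate lyase paralog that acts in the propionate pathway, stayed high where ICL1 fell, with 10238 to 11802 at 120 to 180 degrees.

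The other NADP-dependent isocitrate dehydrogenases lie in other compartments. IDP1, the mitochondrial enzyme, had a range of 0.12 ± 0.04, and IDP3, the peroxisomal one, of 2.59 ± 0.42 (limma adjusted p = 0.0104 and 1.09e-05). IDP3 was still at 252 on its lowest array of the 60 to 120 degree window and reached 3857 at 124.62 degrees, later than IDP2. Of the glycolytic enzyme genes that FBP1 and PCK1 oppose, PFK1, a phosphofructokinase subunit gene, had a range of 0.18 ± 0.03, and CDC19, the main pyruvate kinase gene, of 0.09 ± 0.03, and neither changed past the threshold in the rising step (adjusted p = 0.0984 and 0.325). The minor pyruvate kinase gene PYK2, named after its values were seen, rose there by 1.58 ± 0.14 (adjusted p = 1.39e-10) and was 0.79 lower at 0 to 60 degrees than at 300 to 360 degrees (adjusted p = 1.84e-05). PFK1 and CDC19 were also lower at 0 to 60 degrees than at 300 to 360 degrees, by 0.16 and 0.10 (limma adjusted p = 0.000316 and 0.0105). PCK1 relative to CDC19 was 1.97 ± 0.36 above its mean at 60 to 120 degrees and 0.77 ± 0.07 below it at 300 to 360 degrees.

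**Figure D3:**
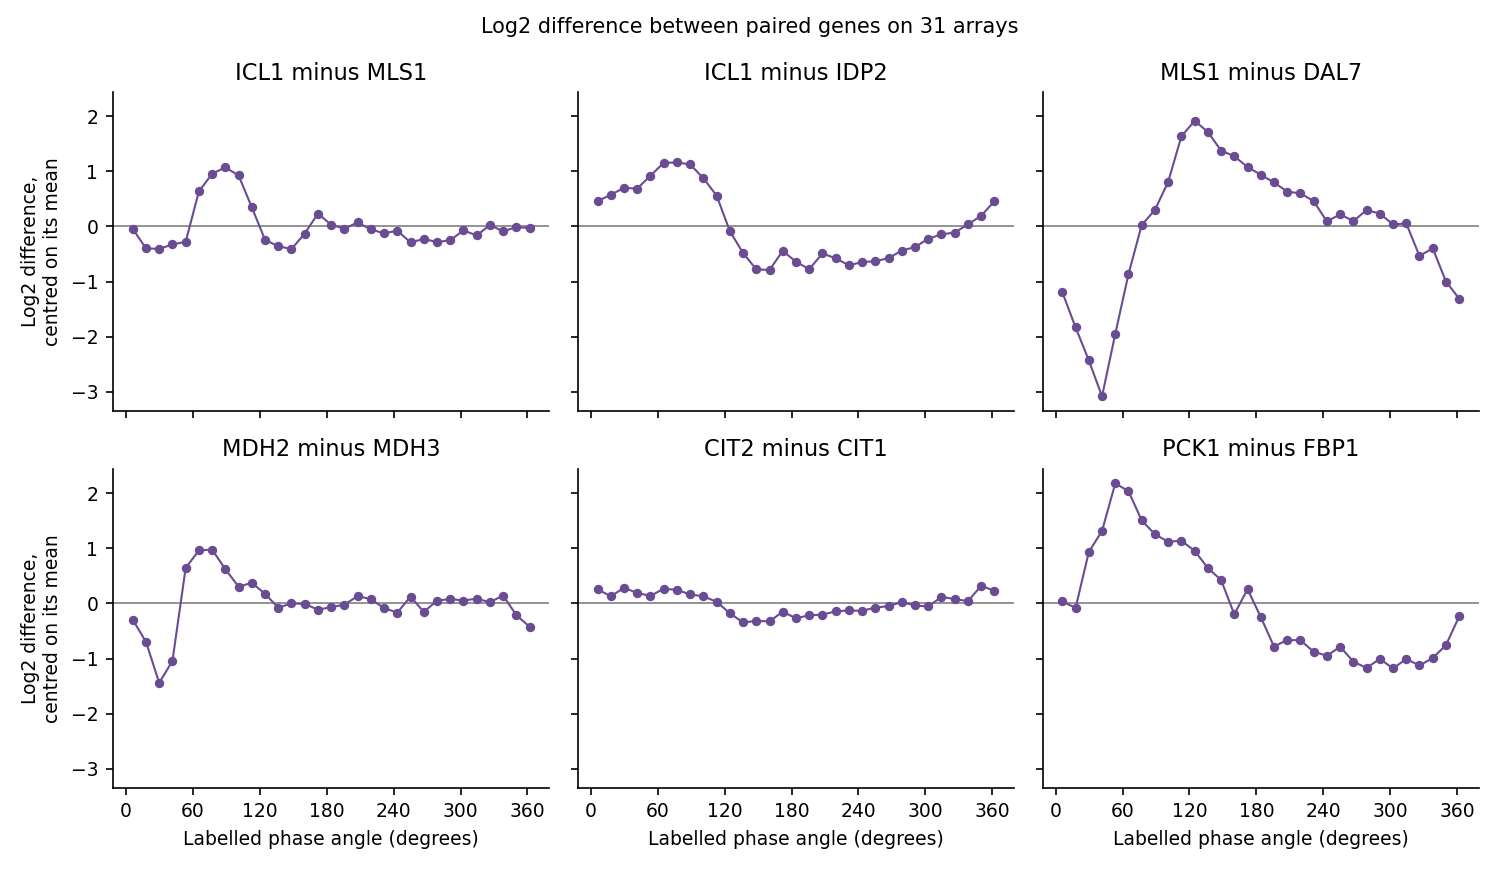
Log2 difference between the probe sets of 6 gene pairs on each of the 31 arrays, centred on its mean over the arrays, against the labelled phase angle in degrees. ICL1 minus MLS1 and ICL1 minus IDP2 peak within the 60 to 120 degree window or at its edge, MLS1 minus DAL7 has its minimum of -3.08 at 41.54 degrees, and PCK1 minus FBP1 peaks at 53.41 degrees with 2.18.

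Of the mitochondrial TCA cycle, 16 genes were tested. At 60 to 120 degrees 15 rose and none fell, with a median change of 0.46, against 0.06 over all probe sets. In this step 42.1% of all probe sets tested were higher and 34% lower. CIT3 missed (0.34 ± 0.49, limma adjusted p = 0.532), although it had the largest range of the list, 1.86 ± 0.41, followed by LSC2 with 0.87 ± 0.16 and KGD2 with 0.78 ± 0.16. At 120 to 180 degrees only IDH1 and IDH2 fell, by 0.56 and 0.53, and CIT3 alone rose (19.6% of all probe sets were higher and 20.4% lower). With median centring 13 rose in this step (40.9% of all probe sets passed in either direction). With serially correlated arrays none of the 16 passed (0.35% of all probe sets). Among the 11 genes of acetate use and the carnitine shuttle, 9 rose and none fell at 60 to 120 degrees (42.1% and 34% of all probe sets). Those that rose included the acetate transporter gene ADY2 (1.42 ± 0.33, limma adjusted p = 0.000406) and the acetyl-CoA synthetase gene ACS1 (0.68 ± 0.23, adjusted p = 0.00949). CAT2, the carnitine acetyltransferase of mitochondria and peroxisomes, had the largest range of that list, 2.05 ± 0.39, and rose in the next step (1.27, adjusted p = 0.0345), a call lost on the deposited scale (adjusted p = 0.0729), with serially correlated arrays (0.68) and within spike sets 1 (0.0546) and 2 (0.922). Of 5 targets of retrograde signalling, the 4 that also belong to the TCA list rose, as counted there; DLD3, the other, a lactate dehydrogenase gene, had the largest range, 0.82 ± 0.13, and differed by -0.04 there (adjusted p = 0.736).

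Of the 23 genes of regulators, 16 rose and 4 fell at 60 to 120 degrees (42.1% of all probe sets were higher and 34% lower). CAT8, which encodes an activator of gluconeogenic genes, rose by 2.01 ± 0.23 (limma adjusted p = 1.08e-08), with 2068 to 3672 at 60 to 120 degrees against 358 to 1223 at 0 to 60 degrees and no overlap. CAT8 was lowest at 29.67 degrees, and its rise was 1.36 to 2.27 under the 7 other scalings, noise models and spike-set settings, past the threshold in all 7. SIP2, a subunit gene of the Snf1 kinase, rose by 2.21 ± 0.19 (adjusted p = 1.39e-10) and had the largest range of this list, 1.73 ± 0.29. GIS1, the gene of a factor of post-diauxic expression, rose by 1.63 ± 0.16 (adjusted p = 9.47e-10) and had a range of 1.71 ± 0.22. On the deposited scale and with scaling by the spikes 16 rose and 1 fell (59.7% and 73.4% of all probe sets passed in either direction). With serially correlated arrays 11 rose and 1 fell (45.2%), and within spike set 1 12 rose and 1 fell (47.2%).

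The GID complex is a ubiquitin ligase that marks Fbp1, Icl1, Mdh2 and Pck1 for breakdown, and Vid24, also called Gid4, is the receptor that binds their N-terminal proline. Of the 10 genes of the GID and Vid group that were tested, 9 rose and 1 fell at 60 to 120 degrees. In this step 42.1% of all probe sets tested were higher and 34% lower. The 1 that fell was VID24. VID24 ranged from 761 to 1266 at 60 to 120 degrees, against 1515 to 4849 at 0 to 60 degrees, without overlap. It fell by 1.80 ± 0.21 on the log2 scale (limma adjusted p = 1.86e-08), and by 0.99 to 2.27 under the 7 other scalings, noise models and spike-set settings, past the threshold in all 7.

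Array by array, VID24 had 4173 at 5.93 degrees, 4849 at 17.80 degrees, 4580 at 29.67 degrees, 2455 at 41.54 degrees and 1515 at 53.41 degrees, and between 714 and 991 on every array from 89.01 to 290.77 degrees. VID24 was 1.26 ± 0.21 higher at 0 to 60 degrees than at 300 to 360 degrees. The other 9 genes of the list fell in this step (35.4% of all probe sets tested were higher and 34% lower). With serially correlated arrays none of the 10 passed in it (0% of all probe sets), VID24 with a limma adjusted p of 0.0633. Within spike set 1, 6 of the list fell (39.7% of all probe sets passed). Those that rose included VID30, a scaffold subunit gene, with 989 to 2019 at 60 to 120 degrees against 242 to 599 at 0 to 60 degrees (2.00 ± 0.21, limma adjusted p = 3.23e-09), and VID28 (1.60 ± 0.18, adjusted p = 6.22e-09). Transcript levels say nothing here about the amount or breakdown of the enzymes.

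**Figure D4:**
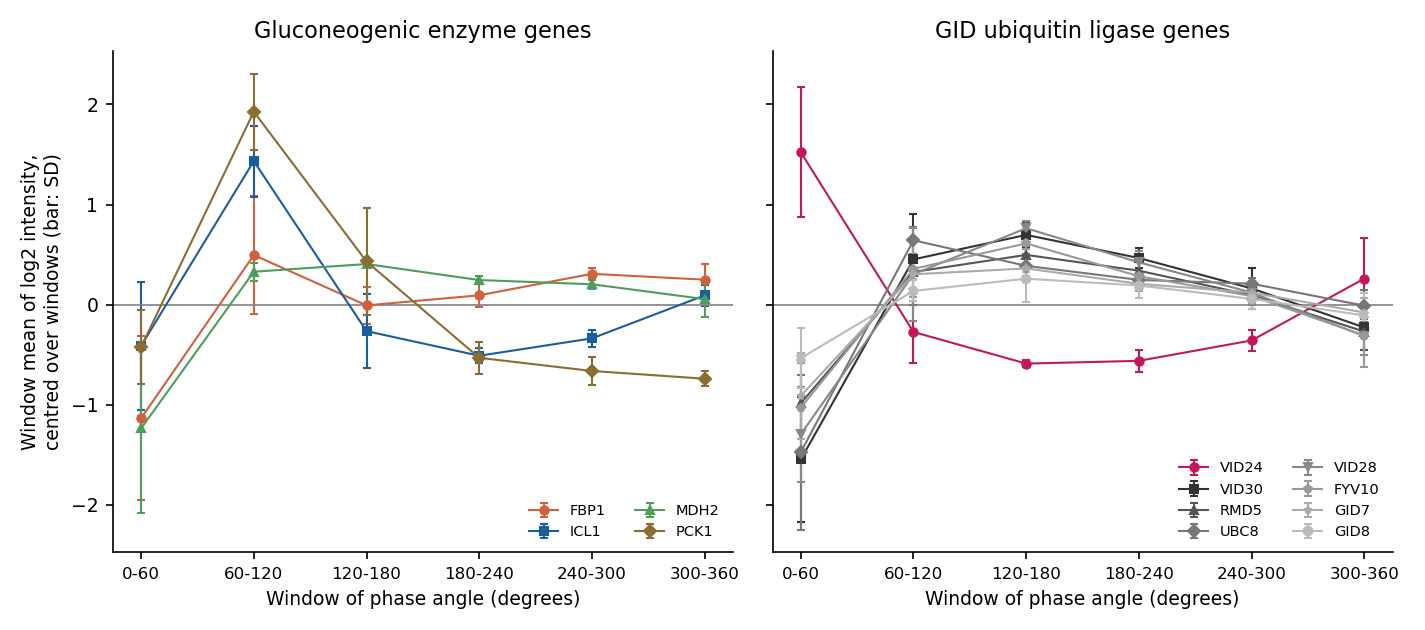
Mean log2 intensity in each window of 60 degrees, centred over the 6 windows (bars, SD over 5 or 6 arrays), for 4 genes whose enzymes the GID ligase marks (left panel) and for 8 genes of the GID and Vid group (right panel). VID24 is highest at 0 to 60 degrees, where the 7 other genes of the right panel and FBP1 and MDH2 are lowest.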

How the data were processed

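The deposited values are probe set intensities on a linear scale, made by the authors with GCOS per the submitters' processing notes; its version and scaling are not given there. The labels form 1 group of 31 arrays. Of 5498 S. cerevisiae probe sets, 76 whose median did not exceed 17.04, the 95th percentile for probe sets of other species, were dropped, which left 5422. The design asks for quantile normalization where array medians differ over 2-fold. Log2 values were fitted with limma 3.58.1 in R 4.3.3: F-tests of the cosine and sine of the labelled angle and of 2 and 3 times that angle, and moderated tests of successive window means, the array at 362.01 degrees joining 0 to 60 degrees, with p-values adjusted by Benjamini-Hochberg over the 5422 and a threshold of 0.05. Pairs used 100000 permutations. Tests were checked on simulated data with independent noise per array, which does not cover the serial correlation of the residuals here. Where a gene has several probe sets the brightest was used. The genes, lists, pairs and tests were chosen with earlier results of these data known. Named beside the 10 are pair partners, the 3 largest ranges of each list, and the 2 probe sets most correlated with each gene; other names were added after their values were seen. GID10 and GID11 were not analysed here. Spike sets follow the ratio of poly-A to hybridization spikes and the numbers in the array descriptions, which the labels do not explain. Figures used matplotlib 3.10.9 in Python 3.11.15.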

Additional observations from a re-analysis of the deposited data

How the results depend on the processing

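No paired analysis was possible because the labels form 1 group with 1 array per time. Of 1962 comparisons of a result with an alternative, 1863 kept their direction and their side of the threshold (or a count within 1.5 times). Another 84 fell below it, 5 rose past it and 9 counts moved further. The 1 that changed sign was CIT2 at 0 to 60 degrees against 300 to 360 degrees, 0.0796 with median centring. The 1962 include refits that left out 1 of the 31 arrays at a time, so they are not 1962 distinct alternatives. The 9 counts and the change of sign came from the other alternatives, and the 5 that rose past the threshold from those refits. The count of genes passing the single cosine, 8, became 5 with scaling by the hybridization spikes, 2 with serially correlated arrays and 4 within spike set 2 (of all probe sets 86.3%, 60.3% and 83.2% passed). At 120 to 180 degrees against 60 to 120 degrees, 6 became 0 with serially correlated arrays and 0 within spike set 2 (0.35% and 0.129% of all probe sets). At 180 to 240 degrees against 120 to 180 degrees, 1 became 0 on the deposited scale (7.12% of all probe sets). It also became 0 with serially correlated arrays and within spike set 1 (0% each). At 0 to 60 degrees against 300 to 360 degrees, 7 became 0 with serially correlated arrays (0%). At 60 to 120 degrees against 0 to 60 degrees the count ran from 7 to 10 over all alternatives. It was 7 with median centring (76.4% of all probe sets) and 8 with serially correlated arrays (45.2%). Leaving out 1 array at a time gave 7 to 9 genes for the single cosine, 10 to 10 for the faster terms, 14 to 14 pairs, and 9 to 10, 6 to 7, 1 to 1, 0 to 0, 0 to 0 and 5 to 7 genes for the 6 steps in the order of the cycle. Fits within a spike set rest on fewer arrays at uneven angles, and the cause of the other changes was not tested. Steps that touch 180 to 240 degrees could not be fitted within spike set 2, which has 1 array there, nor could both steps touching 120 to 180 degrees without the 5 dimmest arrays.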
